A study of Mus musculus with 18 samples.

Results

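Chromatin contacts after deletion of the θ2 CTCF site were examined in 6 of the 18 Capture-C samples of the study, namely ∆θ2 replicates 1 to 3 and the WT replicates 1 to 3 prepared in the same experiment (experiment 2). The samples were chosen by genotype and experiment in their titles. Earlier results of these data were known when the samples, intervals and gene lists were chosen. All 6 are primary Ter119+ erythroid cells, selected with magnetic beads from spleen after phenylhydrazine had been given to adult mice. Phenylhydrazine lyses circulating red cells, and the spleen then fills with their precursors. Mutant and wild-type animals were kept on a C57BL/6J background. The ∆θ2 mice are homozygous for a CRISPR-Cas9 edit made with a repair template, which replaces the core of the θ2 site with a BamHI site and leaves θ1, HS+44 and HS+48 as in WT. The edit is carried by every cell of the animal and not by erythroid cells alone. The other samples of the study are ∆44/48 with its own WT samples (experiment 1), and ∆θ1 and ∆θ1/θ2 (experiment 2). The assay counts DNA contacts and holds no expression, so the erythroid identity rests on the Ter119 selection, whose purity the submitters checked by flow cytometry.

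CTCF binds DNA in an oriented manner and can halt the cohesin complex as it extrudes chromatin loops, so that pairs of CTCF sites facing each other often mark the ends of self-interacting domains. In the mouse α-globin locus the enhancers lie upstream, mostly in introns of *Nprl3*, and contact the promoters of the adult α-globin genes *Hba-a1* and *Hba-a2* in erythroid cells. The α-globin genes lie in a tandem duplication, and each is followed by a θ-globin gene (*Hbq1b* and *Hbq1a*) with a CTCF site at its start. θ2 is the last CTCF site before the flank in which contacts of the locus fall away, and the comparison asks whether that fall depends on it.

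The θ2 and θ1 sites are shown because the edit removes one copy of a sequence that is present at both. The 10 bp in capitals are the bases replaced in ∆θ2 at θ2, and the same bases at θ1, where ∆θ2 carries no edit. Both are printed on the forward strand of mm9 (NCBIM37), at chr11:32199980-32200068 for θ2 and chr11:32186875-32186963 for θ1.
θ2: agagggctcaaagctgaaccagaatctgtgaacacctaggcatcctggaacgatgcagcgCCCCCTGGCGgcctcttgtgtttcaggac
θ1: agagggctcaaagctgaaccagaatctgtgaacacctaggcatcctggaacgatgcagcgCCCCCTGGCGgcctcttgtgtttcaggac

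The 89 bases printed differ at 0 positions between the sites, which lie 13105 bp apart. The replaced bases at θ2 run from 32200040 to 32200049 of chromosome 11, intergenic, 20 bp before the annotated start of *Hbq1a* and within the DpnII fragment from 32199493 to 32200137. At θ1 the matching bases run from 32186935 to 32186944, 21 bp before *Hbq1b* and within the DpnII fragment from 32186469 to 32187032. The inserted BamHI site contains the recognition site of DpnII, the enzyme used to cut the chromatin, so the edited allele yields shorter fragments at θ2 than the reference on which counts were assigned.

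Contacts were counted from 5 viewpoint fragments. The Hba-1 viewpoint (chromosome 11, 32182969 to 32183821) covers the promoter of *Hba-a1* and Hba-2 (32195804 to 32196638) that of *Hba-a2*. The 150 bases before the annotated start of *Hba-a2* match a stretch at *Hba-a1* with 0 differences, and 50.9% to 63.7% of the fragments hit on other chromosomes were listed under both viewpoints in a sample. The 2 viewpoints therefore share molecules, and their results are not independent of each other. The control viewpoints lie on chromosomes without an edit. In the annotation, the fragment named Hbb-b1 (chromosome 7, 110961967 to 110962817) lies over *Hbb-b2* and the fragment named Hbb-b2 (110975976 to 110976456) over *Hbb-b1*. In a sample, 44.7% to 58.6% of the fragments hit on other chromosomes were listed under both Hbb viewpoints. Results of these 2 viewpoints are therefore not independent of each other either. Slc25A37 (chromosome 14, 69902454 to 69903469) covers the start of *Slc25a37*, which encodes mitoferrin, the mitochondrial iron importer of erythroid cells.

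WT samples held 65610 to 159777 interaction counts in total, with a median of 82289. In ∆θ2 samples the totals ran from 75080 to 232346, around a median of 156999. From Hba-1, 9836 to 25617 counts per WT sample and 10431 to 32452 per ∆θ2 sample lay in cis, that is on the chromosome of the viewpoint and more than 1 kb away from its viewpoint fragments. Values below are counts per 100000 such cis counts, given per kb for intervals. The WT and ∆θ2 libraries also differed at a locus that was not edited. From the Slc25A37 viewpoint, 0.923% to 1.323% of cis counts fell on *Loxl2* in WT and 7.405% to 7.922% in ∆θ2, and this viewpoint took 22.28% to 27.09% of all counts of a WT sample against 30.02% to 36.15% of a ∆θ2 sample. Its part in the results at the α-globin locus was not tested.

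The DpnII fragment over θ2 checks the labels only in part, since the edit shortens the fragment but leaves most of it in place. From Hba-1 it held 776, 488 and 610 counts per 100000 in WT replicates 1 to 3, and 414, 465 and 403 in ∆θ2. All ∆θ2 values lay below all WT values. The log2 fold change of ∆θ2 over WT was −0.52 with a standard error (SE) of 0.222. Across 644 fragments, the quasi-likelihood test of edgeR gave this change an adjusted p = 0.524, with p-values adjusted by the method of Benjamini and Hochberg here and throughout. From Hba-2 the same fragment held 787, 564 and 602 counts in WT and 486, 467 and 450 in ∆θ2. The groups were again apart, with a log2 fold change of −0.47 (SE 0.211, edgeR adjusted p = 0.524 over 664 fragments). The fragment over θ1, which was not edited, overlapped between the groups from both viewpoints, at log2 fold changes of −0.20 and −0.34. So did the fragments on either side of θ2, the nearest of which downstream, in *Hbq1a*, changed by −0.16 from Hba-1 and −0.25 from Hba-2. No fragment was called, which here means an adjusted p under 0.01, from either viewpoint (0 of 644 and 0 of 664, 0.0% each). DESeq2 also called 0, and 45 and 57 fragments had an unadjusted p under 0.05. Without WT replicate 3, 1 fragment was called from Hba-1.

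Just downstream of θ2, contact densities of both α-globin viewpoints were higher in ∆θ2 than in WT, and passed the threshold from Hba-1 but not from Hba-2. The downstream flank, 18 kb between the end of *Hbq1a* and the HS+44/+48 CTCF sites (chromosome 11, 32200874 to 32218873), is intergenic. From Hba-1 it held 214, 217 and 227 counts per kb in WT and 296, 288 and 262 in ∆θ2. Each ∆θ2 sample exceeded every WT sample. The means were 219 ± 7.04 and 282 ± 17.9 (SD, n = 3 each), and the flank rose by 0.37 on the log2 scale (SE 0.0816, edgeR adjusted p = 0.00804 over 12 intervals). It was the only 1 of 12 intervals called from Hba-1 (8.33% called, 1 higher and 0 lower). The call was lost when any of WT replicates 1, 2 or 3 or ∆θ2 replicates 1 or 2 was left out, with adjusted p of 0.0396, 0.0169, 0.0145, 0.02 and 0.026, while the change stayed between 0.33 and 0.39. It was also lost with DESeq2 (0.24, adjusted p = 0.031), a zone of 6 kb around the viewpoint (0.026), narrowed intervals (0.0135) and both promoters summed (0.012). From Hba-2 the flank held 250, 254 and 268 counts per kb in WT and 340, 320 and 305 in ∆θ2, again without overlap. The change of 0.33 on the log2 scale (SE 0.0742) had an edgeR adjusted p = 0.016, and 0 of 12 intervals were called from Hba-2 (0.0%; 9 had an unadjusted p under 0.05).

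Farther downstream the differences had the same sign. Over HS+44/+48, a pair of CTCF sites that is intact here, in the interval 18 to 27 kb past *Hbq1a*, Hba-1 contacts were 133, 136 and 133 counts per kb in WT and 176, 187 and 146 in ∆θ2. All ∆θ2 samples lay above WT (log2 fold change 0.35, SE 0.124, edgeR adjusted p = 0.0347). From Hba-2 the change was 0.34 (adjusted p = 0.0325). Over HS+65/+66, the next pair of CTCF sites, densities were 32.5, 23.3 and 23.0 in WT and 33.0, 34.8 and 34.1 in ∆θ2 from Hba-1. The highest WT sample lay just below the lowest ∆θ2 sample, and the log2 fold change was 0.39 (SE 0.192, adjusted p = 0.0712). From Hba-2 the groups overlapped, at 39.1, 31.6 and 28.5 in WT and 42.7, 38.7 and 51.1 in ∆θ2 (0.37, SE 0.198, adjusted p = 0.103). The interval over *Sh3pxd2b*, the next gene, which encodes a scaffold protein of podosomes, lies beyond these sites and had low densities of 7.35, 12.6 and 11 in WT and 12.9, 12.8 and 20.7 in ∆θ2. Its log2 fold changes were 0.52 from Hba-1 (SE 0.218, adjusted p = 0.0455) and 0.56 from Hba-2 (SE 0.197, adjusted p = 0.0325). In the 100 kb past it, the values were 4.6, 5.55 and 4.14 in WT and 6.38, 6.98 and 8.67 in ∆θ2, a log2 fold change of 0.56 (adjusted p = 0.015). None of these intervals passed the threshold of 0.01 in this comparison.

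Within the domain, upstream of θ2, contact densities were lower in the ∆θ2 samples over most intervals, although none passed the threshold of 0.01. Over the interval with the enhancers, 11 to 39 kb before *Hba-a1*, Hba-1 contacts were 713, 652 and 623 counts per kb in WT and 617, 614 and 556 in ∆θ2. The groups did not overlap, but the gap between them was small (log2 fold change −0.15, SE 0.0683, edgeR adjusted p = 0.0529). From Hba-2 the values were 656, 594 and 566 in WT and 564, 552 and 530 in ∆θ2 (−0.14, SE 0.0687, adjusted p = 0.0792). Over HS-38/-39, a pair of CTCF sites beyond the enhancers, the densities from Hba-1 were 518, 485 and 540 in WT and 431, 428 and 389 in ∆θ2. Every ∆θ2 sample was lower (log2 fold change −0.30, SE 0.0863, adjusted p = 0.015), and from Hba-2 the change was −0.28 (adjusted p = 0.0325). Over the interval with *Hba-x*, the embryonic ζ-globin gene, Hba-1 contacts were 1179.1, 1143.4 and 1162.8 in WT and 1006.6, 988 and 916 in ∆θ2. All ∆θ2 samples were lower by a margin larger than the spread within either group (log2 fold change −0.26, SE 0.0659, adjusted p = 0.0121). The *Hba-x* change from Hba-1 did pass in 4 of 15 alternatives. These were DESeq2 (adjusted p = 1.01e-05), TMM factors (0.00507), the replicate number as a block (0.00561) and omission of ∆θ2 replicate 3 (0.00874). The Hba-1 changes over the enhancers and over HS-38/-39 passed in 2 of 15 each.

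The interval with the α-globin genes runs from 1 kb before *Hba-a1* to the end of *Hbq1a* and holds both θ sites. Outside the zones around the viewpoints its density from Hba-1 was 1103.3, 985 and 1036 in WT and 969, 897 and 922 in ∆θ2 (log2 fold change −0.16, SE 0.0673, edgeR adjusted p = 0.0455). From Hba-2 it was 1325.4, 1154.9 and 1182 in WT and 1104.8, 1020.5 and 977 in ∆θ2 (−0.24, SE 0.0755, adjusted p = 0.0325). The ∆θ2 samples were the lower ones from both viewpoints. In the stretch 48 to 100 kb before *Hba-a1*, around *Rhbdf1* and *Snrnp25*, the groups overlapped from both viewpoints (−0.14 and −0.15). In the 100 kb upstream of that stretch the sign turned, with 16.3, 15.5 and 16.8 counts per kb in WT and 18.8, 18.7 and 22.5 in ∆θ2 (0.30, adjusted p = 0.0455).

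Of the 12 intervals, 7 had a log2 fold change above 0 and 5 below 0 from Hba-1, and likewise from Hba-2. At an adjusted p of 0.05, 6 were higher and 3 lower from either viewpoint. The sign of each interval was kept in all 15 alternatives run for it (14 for the α-globin genes), but the call at 0.01 moved with the scaling. Size factors of DESeq2, which shifted the median interval by −0.13 from Hba-1 and −0.11 from Hba-2, called 0 higher and 4 lower from Hba-1 and 0 higher and 3 lower from Hba-2. TMM factors called 1 higher and 1 lower from Hba-1, and 1 higher and 0 lower from Hba-2.

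**Figure D1:**
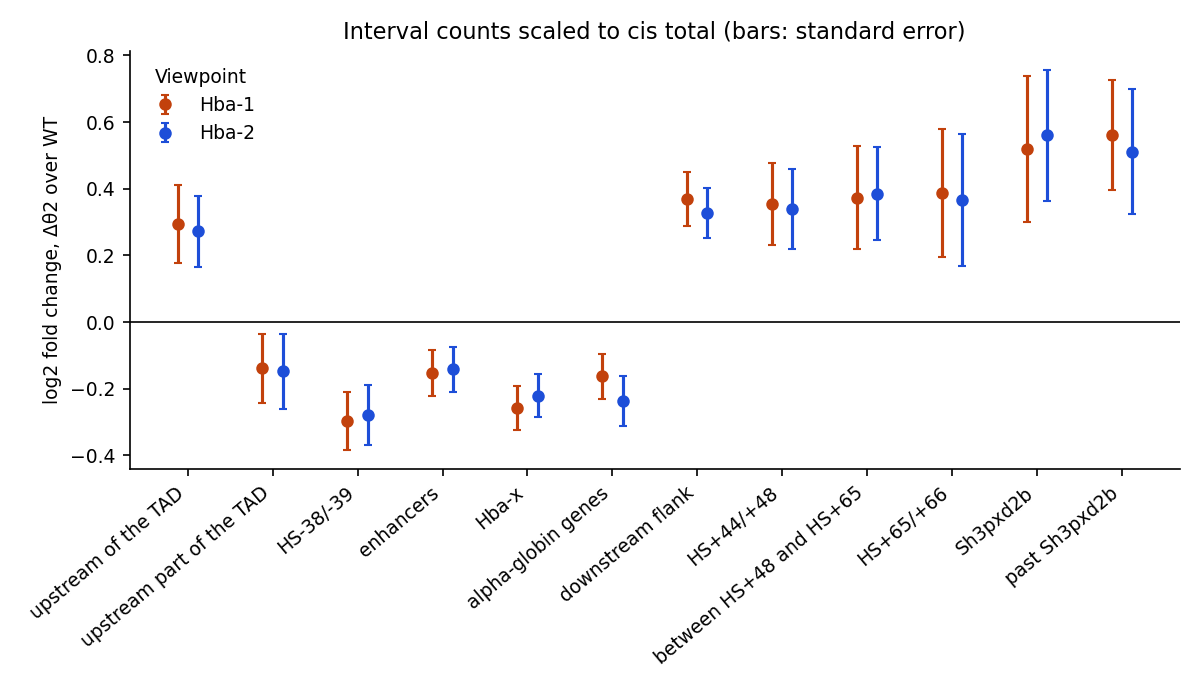
Change of Hba-1 (orange) and Hba-2 (blue) contacts in 12 consecutive intervals of the α-globin locus, ordered from upstream to downstream. The y axis is the log2 fold change of ∆θ2 over WT of counts scaled to the cis total, with bars of 1 standard error. The 5 intervals from the upstream part of the TAD to the α-globin genes lie below 0 and the other 7 above 0.

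Seen in single 5 kb bins, the differences were spread over neighbouring bins and none was called. From Hba-1, 0 of 947 bins passed (0.0%; 38 had an unadjusted p under 0.05), and from Hba-2, 0 of 977 (0.0%; 40 had an unadjusted p under 0.05). DESeq2 called 0 from either. The 14 bins that lie wholly between the 3′ end of *Rhbdf1* and the start of *Hba-a1* had log2 fold changes below 0 from both viewpoints, −0.40 to −0.02 from Hba-1 and −0.34 to −0.08 from Hba-2. The 8 bins that lie wholly between *Hbq1a* and *Sh3pxd2b* had log2 fold changes above 0 from both viewpoints, 0.17 to 0.78 and 0.13 to 0.78. Over all bins tested the median was 0.11 from Hba-1 and 0.12 from Hba-2. Neighbouring bins share libraries and scaling, so these counts describe the profile and carry no test.

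The bins with the smallest p among those near the locus lay in the flank and at the upstream end. The bin from 32215001 to 32220000 of chromosome 11, intergenic and 34.1 kb from the viewpoint, held 925, 1061.8 and 976 Hba-1 counts in WT and 1518.2, 1513 and 1246.3 in ∆θ2. The groups were clearly apart (log2 fold change 0.53, SE 0.14, edgeR adjusted p = 0.131). The bin before it, from 32210001 to 32215000, held 522, 617 and 580 in WT and 929, 857 and 709 in ∆θ2 (0.55, adjusted p = 0.249). The bin from 32135001 to 32140000 lies in *Nprl3* and overlaps the HS-38/-39 interval. Its values were 2753.7, 2568.6 and 3151.7 in WT and 2228.6, 2154 and 2003.6 in ∆θ2 (−0.40, adjusted p = 0.249). The bin with the edited bases of θ2, from 32200001 to 32205000, overlapped between the groups from both viewpoints (0.02 and −0.02). Most of the DpnII fragment over θ2 lies in the bin before it, from 32195001 to 32200000. That bin overlapped between the groups too (−0.12 from Hba-1 and −0.21 from Hba-2). The bin that holds θ1 was lower in ∆θ2 from both (−0.16 and −0.25, adjusted p = 0.998 and 0.996).

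**Figure D2:**
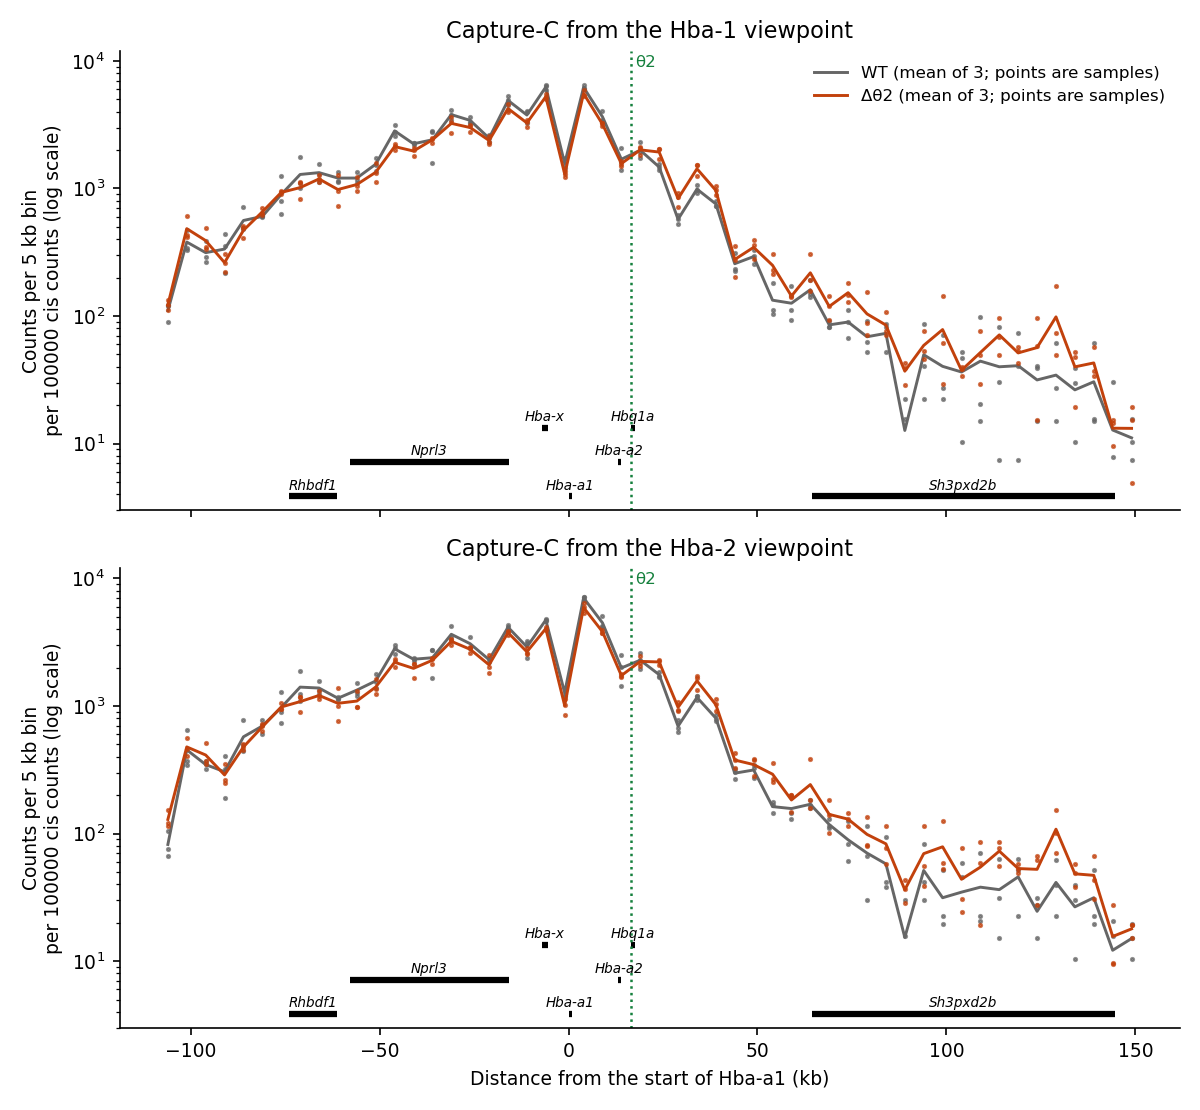
Contacts of the Hba-1 (top) and Hba-2 (bottom) viewpoints in 5 kb bins along the α-globin locus. The x axis is the distance from the start of *Hba-a1* in kb and the y axis, on a log scale, the counts per bin per 100000 cis counts; points are samples, lines the means of 3 WT (grey) or 3 ∆θ2 (orange) samples, black bars genes and the dotted line θ2. Contacts fall past θ2 in both groups, and between *Hbq1a* and *Sh3pxd2b* the ∆θ2 mean lies above the WT mean in 8 of 8 bins.

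A ratio of densities within a sample needs no scaling between samples. The log2 ratio of the enhancer interval to the downstream flank was 1.74, 1.59 and 1.46 in WT and 1.06, 1.09 and 1.09 in ∆θ2 from Hba-1. From Hba-2 it was 1.39, 1.23 and 1.08 in WT and 0.73, 0.788 and 0.794 in ∆θ2. In all 12 values the enhancers lay above the flank, and each ∆θ2 sample had a smaller ratio than every WT sample. The mean drop was 3.02-fold in WT and 2.11-fold in ∆θ2 from Hba-1, and 2.35-fold and 1.71-fold from Hba-2. The differences of −0.52 and −0.46 had p = 0.1 in two-sided exact permutation tests, the smallest p that 3 against 3 samples allow. For the ratio of the α-globin genes to the flank, the drop went from 4.74-fold to 3.3-fold from Hba-1 and from 4.74-fold to 3.21-fold from Hba-2 (differences of −0.52 and −0.56, exact permutation p = 0.1 each).

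Of the 12 genes listed for the α-globin domain and its flanks, *Hba-a1* and *Hba-a2* lie within the zones around the viewpoints and held no counts, and the other 10 were tested. No gene was called from either viewpoint, among these 10 or among all 582 tested from Hba-1 and 587 from Hba-2 (0.0% each; 31 and 24 had an unadjusted p under 0.05, and DESeq2 called 0). Of the 10, 7 had log2 fold changes below 0 and 3 above 0 from either viewpoint, with medians of −0.17 and −0.20 against 0.07 and 0.09 over all genes tested. *Nprl3*, a regulator of the mTORC1 pathway whose introns hold most of the enhancers, was lower in every ∆θ2 sample, at 23134.3, 21556 and 21848.3 in WT and 20300.7, 20011.1 and 18243.7 in ∆θ2 from Hba-1 (log2 fold change −0.18, SE 0.116, edgeR adjusted p = 0.973). *Sh3pxd2b* was higher in every ∆θ2 sample, at 545, 925 and 854 in WT and 983, 955 and 1581.8 in ∆θ2 (0.57, SE 0.207, adjusted p = 0.661). *Ubtd2*, a ubiquitin-like protein gene farther downstream, was at 254, 285 and 203 in WT and 336, 410 and 556 in ∆θ2 (0.74, SE 0.266, adjusted p = 0.661). From Hba-2 *Ubtd2* overlapped between the groups (0.59, adjusted p = 0.961). *Il9r*, *Snrnp25*, *Rhbdf1*, *Mpg*, the gene body of *Hba-x*, *Hbq1b* and *Hbq1a* overlapped between the groups from both viewpoints.

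The share of cis contacts near the Hba-1 viewpoint was smaller in the 3 ∆θ2 samples, and for Hba-2 the result depended on the zone left out around the viewpoints. From Hba-1, 54.0%, 50.2% and 51.1% of cis counts lay within 50 kb of the viewpoint in WT and 49.3%, 48.1% and 45.0% in ∆θ2. More than 10000 kb away the shares were 23.8%, 24.6% and 23.6% in WT and 25.2%, 25.7% and 26.1% in ∆θ2. Neither pair of groups overlapped (differences of −4.31 and 1.63 percentage points, two-sided exact permutation p = 0.1 each). From Hba-2 the shares within 50 kb were 48.0%, 44.2% and 43.7% in WT and 43.6%, 42.4% and 40.6% in ∆θ2, a difference of −3.10 percentage points (exact permutation p = 0.1). With a zone of 6 kb in place of 1 kb that difference was −1.33 and the groups overlapped (exact permutation p = 0.4). The share of all Hba-1 counts outside the 1 kb zones that lay in cis was 73.2%, 72.6% and 73.4% in WT and 71.1%, 72.1% and 70.8% in ∆θ2, again without overlap (−1.78 percentage points, exact permutation p = 0.1). From Hba-2 it was 73.3%, 72.8% and 73.3% in WT and 71.9%, 72.3% and 70.1% in ∆θ2 (−1.68 percentage points, exact permutation p = 0.1). Without ∆θ2 replicate 3 the latter difference was −1.03, and with a zone of 6 kb it was −1.05 with overlapping groups (exact permutation p = 0.3). A lower cis share was not particular to the edited chromosome. From Slc25A37, on an unedited chromosome, it was 70.6%, 69.0% and 69.9% in WT and 65.4%, 66.1% and 64.2% in ∆θ2, the largest difference of the 5 viewpoints (−4.60 percentage points, exact permutation p = 0.1).

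At the β-globin locus on chromosome 7, which was not edited, no difference was called. From Hbb-b1, 0 of 840 bins, 0 of 516 genes and 0 of 4 intervals passed (0.0% each; 35, 30 and 0 had an unadjusted p under 0.05). From Hbb-b2, 0 of 886 bins, 0 of 547 genes and 0 of 4 intervals passed (0.0% each; 38, 37 and 0 had an unadjusted p under 0.05). DESeq2 called 0 in all 6. Without ∆θ2 replicate 2, 1 bin was called from Hbb-b1, and without ∆θ2 replicate 1, 1 gene. Over the 30 kb past *Hbb-y* that hold the locus control region, the group of β-globin enhancers, Hbb-b1 contacts were 579, 503 and 423 counts per kb in WT and 435, 454 and 397 in ∆θ2. The groups overlapped (log2 fold change −0.23, SE 0.117, edgeR adjusted p = 0.29), as they did from Hbb-b2 (−0.19, SE 0.141, adjusted p = 0.398). Without WT replicate 3 the change from Hbb-b1 was −0.32 and passed (adjusted p = 0.00832), and without WT replicate 1 it was −0.11. The bin from 110960001 to 110965000, which holds the Hbb-b1 viewpoint and is counted outside its 1 kb zone, was at 2512.8, 1949 and 2205 in WT and 1462.9, 1592.2 and 1298 in ∆θ2. It was lower in every ∆θ2 sample from Hbb-b1 (−0.59, SE 0.173, edgeR adjusted p = 0.281) and from Hbb-b2 (−0.56, SE 0.188, edgeR adjusted p = 0.58). Of the 9 listed genes that were tested, *Hbb-bh1* and *Hbb-y*, embryonic β-like globin genes, were higher in every ∆θ2 sample from Hbb-b2 (0.39 and 0.18, adjusted p = 0.725 and 0.942). From Hbb-b1 *Hbb-bh1* was also higher in every ∆θ2 sample (0.16, edgeR adjusted p = 0.933), whereas *Hbb-y* overlapped between the groups. The cis shares of both viewpoints overlapped between the groups.

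The mitoferrin locus on chromosome 14, also unedited and unlinked to θ2, showed the only bins called in the comparison. From Slc25A37, 32 of 1429 bins passed (2.24%; 111 had an unadjusted p under 0.05), 25 higher and 7 lower in ∆θ2. TMM factors called 24 higher and 0 lower and DESeq2 31 higher and 0 lower. The median log2 fold change over all bins was −0.21 with the cis total, 0.08 with TMM factors and 0.07 with DESeq2, and the 7 lower bins were called with the cis total but not with these factors. Of the higher bins, 24 formed an unbroken run of 120 kb from 69975001 to 70095000, 18 of them over *Loxl2*, which encodes a lysyl oxidase of the extracellular matrix, at log2 fold changes of 1.36 to 3.42. The other 6, from *Entpd4* to *Loxl2*, changed by 0.79 to 1.48.

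The bin from 70085001 to 70090000, near the 3′ end of *Loxl2* and 184.5 kb from the viewpoint, had the smallest p. It held 103, 90.4 and 89.4 counts per 100000 in WT and 959, 782 and 941 in ∆θ2. The lowest ∆θ2 sample was far above the highest WT sample (log2 fold change 3.24, SE 0.197, edgeR adjusted p = 5.45e-56). The next bin but 1, from 70095001 to 70100000, was lower in ∆θ2, at 137, 131 and 138 in WT and 48.9, 46.0 and 68.2 in ∆θ2 (−1.38, SE 0.337, adjusted p = 0.00196). That bin holds the end of *Loxl2*, at 70095640, so the run of higher bins stopped short of it by less than a bin. On the other side of the viewpoint, the 4 consecutive bins from 69850001 to 69870000, over and past the 3′ end of *Slc25a37*, were lower by log2 fold changes of −0.90 to −0.54.

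**Figure D3:**
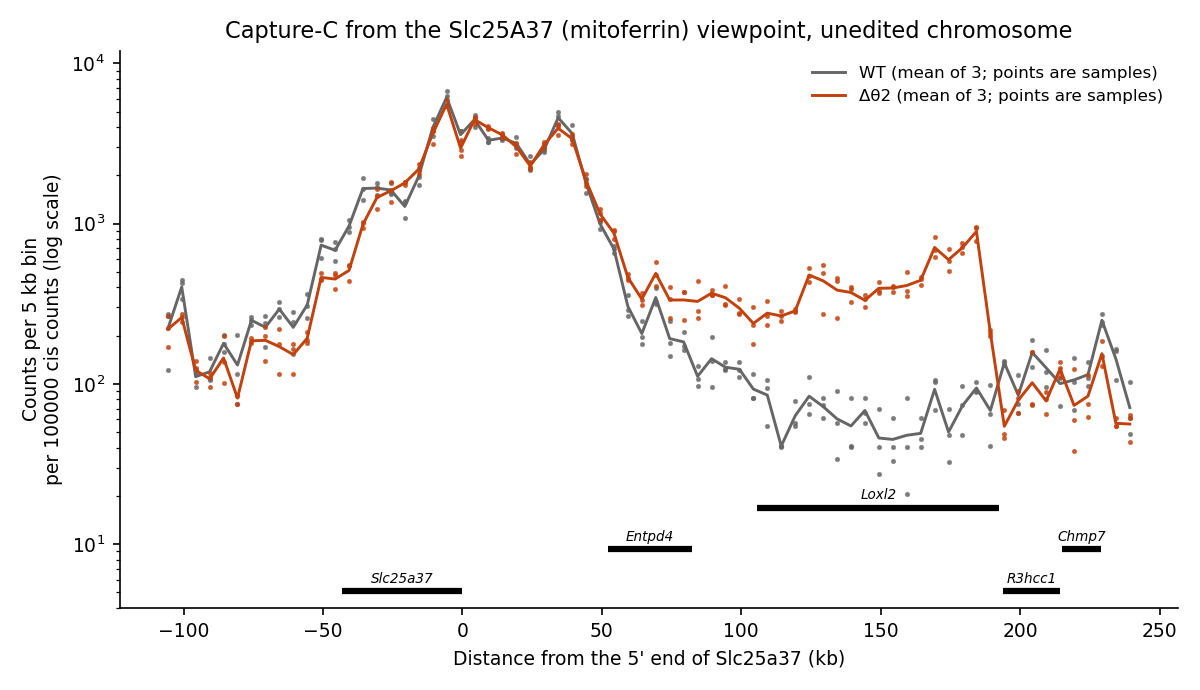
Contacts of the Slc25A37 viewpoint in 5 kb bins along the mitoferrin locus. The x axis is the distance in kb from the 5′ end of *Slc25a37*, measured towards *Loxl2*, and the y axis, on a log scale, the counts per bin per 100000 cis counts; points are samples, lines the means of 3 WT (grey) or 3 ∆θ2 (orange) samples and black bars genes. The ∆θ2 samples lie above WT from *Entpd4* through *Loxl2* and fall back at its end.

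Among genes seen from Slc25A37, 4 of 463 were called (0.864%; 46 had an unadjusted p under 0.05), 3 higher and 1 lower. *Loxl2* held 923, 1322.7 and 1056.7 counts per 100000 in WT and 7922.4, 7558 and 7405.4 in ∆θ2. It rose by 2.78 in log2 units (SE 0.105, edgeR adjusted p = 7.51e-129). *Gm16867*, a gene model on the opposite strand that overlaps *Loxl2* and shares its counts, rose by 1.70 (adjusted p = 3.36e-74). *Entpd4*, which encodes a nucleotidase of the Golgi and lysosome, was at 2031, 1955.2 and 1893.8 in WT and 2996.7, 3026.7 and 2570.7 in ∆θ2 (0.55, SE 0.115, adjusted p = 0.000294). Without WT replicate 3, ∆θ2 replicate 1 or ∆θ2 replicate 2 its adjusted p was 0.0237, 0.019 and 0.0395. *Epb4.9*, a gene for a membrane skeleton protein of red cells, was at 602, 550 and 699 in WT and 326, 274 and 443 in ∆θ2 (−0.86, SE 0.205, adjusted p = 0.00346). That call was lost with TMM factors (adjusted p = 0.176), DESeq2 (0.175) and a library size without *Loxl2* counts (0.0264), and without WT replicates 1 or 3 or ∆θ2 replicates 1 or 2 (0.0189, 0.0795, 0.0396 and 0.167). Of the 8 genes listed for the locus, *Loxl2* and *Entpd4* were called higher and 0 lower. *Slc25a37* itself overlapped between the groups (−0.14, adjusted p = 0.383, with a sign that turned to 0.07 with TMM factors and 0.05 with DESeq2).

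By interval, 2 of 5 were called from Slc25A37 (40.0%; 3 had an unadjusted p under 0.05). The stretch 50 to 100 kb before the gene's 5′ end, which ends before *Loxl2*, went from 53.3, 53.9 and 51.0 counts per kb in WT to 89.8, 89.1 and 83.8 in ∆θ2 (log2 fold change 0.74, SE 0.0461, edgeR adjusted p = 5.57e-08). The 50 kb past its 3′ end went from 64.1, 62.3 and 61.6 to 43.8, 41.8 and 41.8 (−0.56, SE 0.0433, adjusted p = 2.36e-07). Both groups of samples were tight and far apart, and the 13 alternatives run kept both calls. The share of cis counts 50 to 250 kb from the viewpoint was 9.31%, 9.81% and 9.25% in WT and 17.1%, 16.5% and 16.5% in ∆θ2.

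Of the cis counts from Slc25A37, *Loxl2* took 1.02% ± 0.125 in WT of experiment 1, 1.1% ± 0.204 in WT of experiment 2, 6.26% ± 0.462 in ∆θ1, 7.45% ± 0.266 in ∆θ1/θ2 and 7.63% ± 0.266 in ∆θ2 (mean ± SD of 3 samples each). The WT samples of both experiments were low, and the samples of all 3 θ genotypes high without overlap. Of the counts on chromosome 14 from Hba-1 and Hbb-b1, viewpoints on other chromosomes, those on *Loxl2* were 1 of 1395 in WT of experiment 2 (0.0717%, 95% exact Clopper-Pearson interval 0.00181% to 0.399%) and 9 of 2142 in ∆θ2 (0.42%, 0.192% to 0.796%). In ∆θ1/θ2, whose share from Slc25A37 was close to that of ∆θ2, they were 2 of 1182 (0.169%, 0.0205% to 0.61%), in ∆θ1 1 of 281 (0.356%, 0.00901% to 1.97%), and in WT of experiment 1 12 of 11214 (0.107%, 0.0553% to 0.187%). The intervals cover counting error only, and those of the 4 groups of experiment 2 overlap one another. The interval of WT of experiment 1 lies wholly below that of ∆θ2 and overlaps those of the other groups. What made the libraries differ at *Loxl2* was not tested. In this comparison the θ2 edit and any other difference between the WT and ∆θ2 mice cannot be told apart at this locus.

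**Figure D4:**
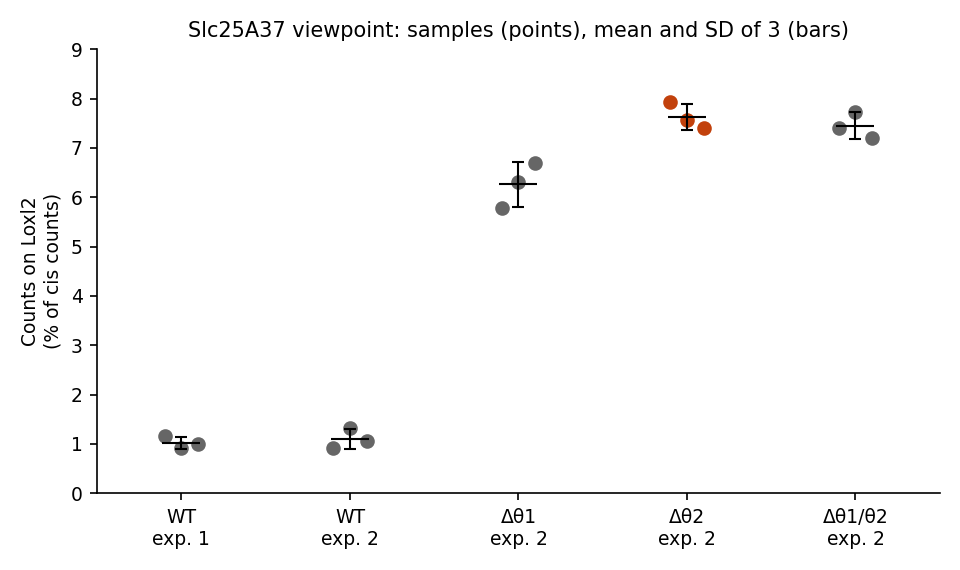
Share of Slc25A37 cis counts that fell on *Loxl2* in 15 samples of 5 groups. The y axis is the percentage of cis counts; points are samples (∆θ2 in orange), and bars the mean and SD of 3. The 6 WT samples lie at 0.907% to 1.323% and the 9 samples with a θ edit at 5.777% to 7.922%.

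The genotype most like ∆θ2 is ∆θ1/θ2, which carries the same θ2 edit and in addition lacks θ1, and the samples were compared directly, without WT. No bin was called (0 of 857 from Hba-1, 0 of 873 from Hba-2 and 0 of 1398 from Slc25A37, 0.0% each; 45, 49 and 62 had an unadjusted p under 0.05). In the downstream flank the Hba-1 densities of 296, 288 and 262 in ∆θ2 overlapped 294, 310 and 281 in ∆θ1/θ2 (log2 fold change of ∆θ1/θ2 over ∆θ2 0.06, SE 0.103, edgeR adjusted p = 0.684). Over the enhancers, Hba-1 densities were 617, 614 and 556 in ∆θ2 and 677, 638 and 671 in ∆θ1/θ2, so the single deletion was lower in 3 of 3 samples (0.15, SE 0.0614, adjusted p = 0.0514). From Hba-2 they were 564, 552 and 530 in ∆θ2 and 629, 609 and 634 in ∆θ1/θ2, and this difference passed (0.18, SE 0.0454, adjusted p = 0.00105). Calls numbered 1 of 12 intervals from Hba-1 (8.33%) and 4 of 12 from Hba-2 (33.3%), and fell to 0 from both with the replicate number as a block. Beside WT, Hba-1 means over the enhancers were 663 in WT, 596 in ∆θ2 and 662 in ∆θ1/θ2. Over *Sh3pxd2b* they were 10.3, 15.4 and 10.1, so ∆θ1/θ2 was near WT in both intervals. It was nearer ∆θ2 over HS+44/+48 (134, 170 and 188) and HS-38/-39 (514, 416 and 430). The difference of ∆θ1/θ2 from WT was not tested. At the mitoferrin locus 0 of 5 intervals and 0 of 453 genes were called (0.0% each; 1 and 26 had an unadjusted p under 0.05). The genotypes did not overlap in the 50 kb before *Slc25a37*, at 650, 665 and 608 counts per kb in ∆θ2 and 747, 708 and 730 in ∆θ1/θ2 (0.18, SE 0.0595, edgeR adjusted p = 0.0295), or in the 50 kb past it, at 43.8, 41.8 and 41.8 in ∆θ2 and 41.4, 38 and 36.2 in ∆θ1/θ2 (−0.13, SE 0.0732, edgeR adjusted p = 0.243).

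**Figure D5:**
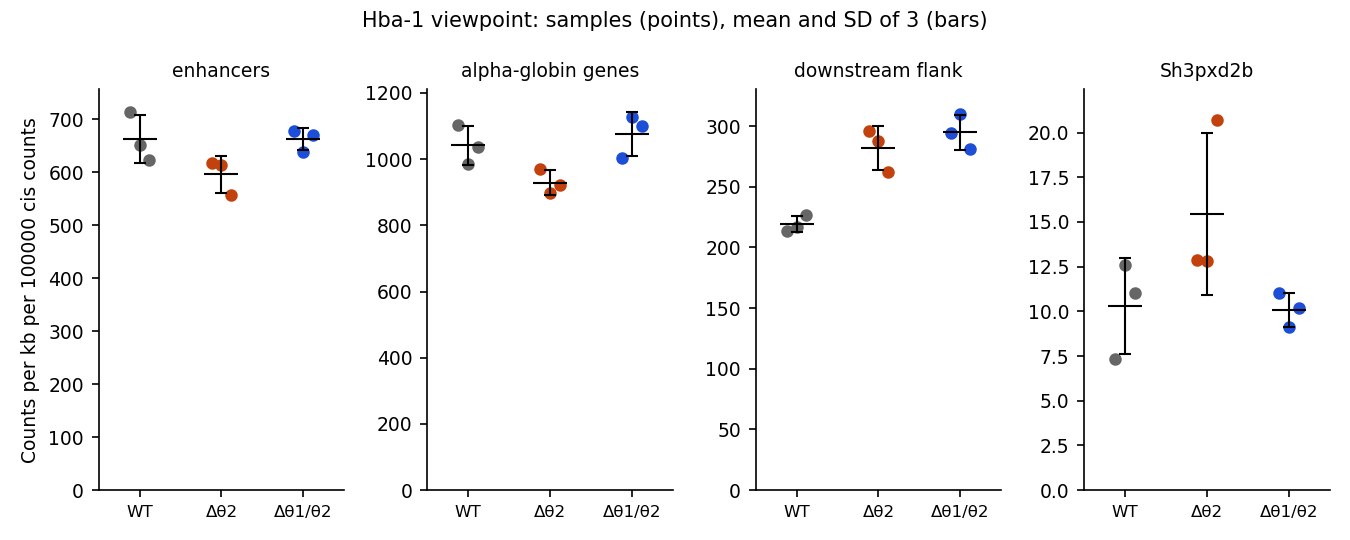
Hba-1 contacts of each WT (grey), ∆θ2 (orange) and ∆θ1/θ2 (blue) sample in 4 intervals, as counts per kb per 100000 cis counts on axes that start at 0. Points are samples, and bars the mean and SD of 3. In the downstream flank both deletions lie above WT, whereas over the enhancers and the α-globin genes the ∆θ2 samples are the lowest.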

How the data were processed

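NG Capture-C interaction counts of 3 ∆θ2 and 3 WT samples were analysed. Per the labels and methods, the authors used Trim Galore and FLASH to trim and merge reads, cut them in silico at DpnII sites, mapped the pieces to mm9 by Bowtie and dropped PCR duplicates. They deposited raw counts of unique reporters per viewpoint and DpnII fragment, with fragments of 0 counts not listed. Of 89454 distinct chromosome 11 fragments listed, 89453 matched a DpnII digest of the NCBIM37 reference at both ends, as did all on chromosomes 7 and 14. Groups come from sample titles. Rows that combine viewpoints were not used.

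A zone of 1 kb around each viewpoint fragment was not counted. Counts were summed in 5 kb bins, gene bodies, intervals and single fragments along the chromosome of the viewpoint. Features with at least 10 counts over the 6 samples were tested with edgeR 4.0.16 in R 4.3.3 (quasi-likelihood test, cis counts as library size, Benjamini-Hochberg adjustment per viewpoint and kind of feature, calls under 0.01). DESeq2 1.42.0, which the methods name, was an alternative. The other alternatives were TMM factors, a library size within 1 Mb, a zone of 6 kb, bins of 2 or 10 kb or shifted by 2.5 kb, minimums of 30 or 1 counts, a threshold of 0.05, narrowed intervals, no top fragment, summed promoters, a joint fit of all 4 groups of experiment 2, a replicate block, and omission of each replicate in turn. A library size without *Loxl2* and the comparison of ∆θ1/θ2 with ∆θ2 from Slc25A37 were chosen after seeing the data. The fits were tested on simulated data. For ratios and shares the test was an exact two-sided permutation of the samples. Permutation tests and summaries used scipy 1.17.1, pandas 2.3.3 and numpy 2.4.6 under Python 3.11.15, and figures matplotlib 3.10.9.

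The named features are all intervals, the listed genes, at most 10 called bins and 5 further called genes per viewpoint, and the bins over θ1, θ2 and the globin promoters. Bins outside that rule that are named for their p were chosen after their values were seen. The samples, intervals and gene lists were chosen with earlier results of these data known. Replicates are described as biological, but the labels do not tie a sample to an animal, so p-values measure the spread between these samples. Between replicates of a group the chi-square statistic was 1.52 to 2.9 times its degrees of freedom, and none was a repeat of another. Counts of PCR products hold no molecular identifiers.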

Additional observations from a re-analysis of the deposited data

Results flagged for a closer look

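In the direct comparison of ∆θ1/θ2 with ∆θ2, 5 interval changes passed the threshold, but none kept its call in every alternative. From Hba-1, *Hba-x* was higher in ∆θ1/θ2 by 0.30 on the log2 scale (edgeR adjusted p = 0.00564), with 1232.4, 1112 and 1239.4 counts per kb against 1006.6, 988 and 916 in ∆θ2. From Hba-2, the enhancers were higher by 0.18 (edgeR adjusted p = 0.00105), *Hba-x* by 0.27 (edgeR adjusted p = 0.00132) and the α-globin genes by 0.21 (edgeR adjusted p = 0.00105). *Sh3pxd2b* was lower in ∆θ1/θ2, with a log2 change of −0.63 (edgeR adjusted p = 0.0031), at 10.6, 8.56 and 11 counts per kb against 13.8, 13.8 and 20.8 in ∆θ2. The 3 samples of one genotype lay on one side of the 3 samples of the other in each of the 5. With the replicate number as a block, the adjusted p were 0.0416, 0.0237, 0.0208, 0.0208 and 0.0208 in the same order. Over all alternatives each kept its sign, and the adjusted p ranged from 0.00111 to 0.0724, 0.000105 to 0.0237, 0.00195 to 0.0235, 4.11e-05 to 0.0208 and 0.0054 to 0.047. Every one of the 5 lost its call when ∆θ1/θ2 replicate 1, ∆θ1/θ2 replicate 3 or ∆θ2 replicate 2 was left out.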

How the results depend on the processing

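The enhancer to flank ratio stayed lower in ∆θ2 with each replicate left out, by −0.58 to −0.44 from Hba-1 and −0.54 to −0.38 from Hba-2. The cis share difference from Hba-1 was −1.36 with a zone of 6 kb, and that from Hba-2 was −1.05 with that zone and −2.13 to −1.03 with a replicate left out. Counts of calls moved as follows. Intervals from Hba-1 numbered 1 as reported, 9 at 0.05, 4 with DESeq2, 2 with TMM factors, 3 with all 4 groups of experiment 2 in one fit, 3 with the replicate block (1 higher, 2 lower), 0 to 3 with a replicate left out, and 0 with a zone of 6 kb, narrowed intervals or summed promoters. Those from Hba-2 numbered 0 as reported, 9 at 0.05, 3 with DESeq2, 0 to 2 with a replicate left out, and 1 with TMM factors, a library size within 1 Mb, all groups or no top fragment. Leaving out a replicate gave 0 to 1 for intervals, bins and genes of Hbb-b1 and for fragments of Hba-1, and 2 to 5 for genes of Slc25A37. A library size within 1 Mb gave 1 bin from Hba-1 and 4 intervals from Slc25A37. Bins from Slc25A37 numbered 61 at 2 kb and 18 at 10 kb. In the comparison with ∆θ1/θ2, intervals numbered 0 with the replicate block, and 0 to 1 from Hba-1 and 0 to 5 from Hba-2 with a replicate left out. Values near 0 changed sign. The Hbb cluster went to 0.046 from Hbb-b1 with a zone of 6 kb and, from 0.002 from Hbb-b2, to −0.037 with DESeq2, −0.006 with TMM factors, −0.036 with summed promoters and −0.073 to 0.053 with a replicate left out. The 50 kb before *Slc25a37* went from 0.005 to −0.081 with a library size within 1 Mb, −0.004 with a zone of 6 kb and −0.023 to 0.046 with a replicate left out. The *Slc25a37* gene body went from −0.14 to 0.047 with DESeq2 and 0.073 with TMM factors. The causes were not tested, beyond the fewer counts or samples that some settings leave.

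The labels number the replicates of both groups but do not say that a number marks a shared batch. Deviations of same-numbered samples correlated at −0.20, 0.01 and −0.02 over 56 Hba-1 bins, and at 0.23, 0.11 and 0.15 over 81 Slc25A37 bins, where 3 of 3 WT samples were most like the ∆θ2 sample of their number. The replicate block moved the Slc25A37 bins to 36 (27 higher, 9 lower) and left its intervals at 2. In single bins from Hba-1, standard errors were 0.13 to 0.37 in the 8 bins between *Hbq1a* and *Sh3pxd2b*, and 0.39 to 0.74 over *Sh3pxd2b*. How much of this came from depth and how much from the spread between replicates was not tested.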
